A study of Sus scrofa with 11 samples.

Results

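Porcine coronary arteries perfused at high flow in a bioreactor were compared with arteries perfused at low flow, over the autosomal genes. Of the 11 libraries in the series, 7 entered the comparison, 5 from high-flow vessels and 2 from low-flow vessels. Of 15348 genes tested, 11093 were placed on an autosome by their symbol and are described here. The 5 high-flow libraries were 3 of stented vessels (labelled Stent/Flow ++) and 2 of vessels without a stent (Flow ++), and both low-flow libraries (Flow +) were of vessels without a stent. All 7 vessels were cultured ex vivo in the bioreactor. The series also holds 2 native arteries and 2 stented arteries held without flow (Stent/Flow -), which are used below as reference levels. The labels give no flow rate, strain, age or sex. Stented high-flow library 3 carries a 7d suffix, and both static libraries a 3d suffix, which the labels do not explain. Nothing in the labels says that the vessels came from separate animals, so p-values measure the spread between libraries. That spread was estimated within the groups of all 11 libraries, native and static vessels included. Native library 2 and stented high-flow library 1 carry the same number, 25, in their labels, which do not say whether it marks 1 animal.

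Blood moving through an artery drags on the endothelial lining, and the endothelium reads this shear stress through junctional, channel and cilium-based sensors. High, steady shear is known to raise the transcription factors KLF2 and KLF4 and nitric oxide synthase NOS3, whereas low or disturbed flow favours adhesion molecules and intimal growth. Smooth muscle in the wall senses flow indirectly, through signals from the endothelium that include Notch ligands and vasodilators, and senses stretch through its focal adhesions.

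The vessels differed in another way that ran exactly with flow. The Y-linked translation factor gene EIF1AY had 368, 324 and 237 counts in the stented high-flow libraries, 313 and 330 in the unstented high-flow libraries, and 1 and 0 in the low-flow libraries. The Y-linked demethylase gene KDM5D had 284, 194 and 213 counts in the stented high-flow libraries, 262 and 554 in the unstented ones, and 0 and 0 at low flow. All 5 high-flow vessels thus carried Y-linked transcripts and both low-flow vessels did not, so that flow and the presence of a Y chromosome cannot be told apart in any result below. Native vessels carried these transcripts (EIF1AY at 264 and 470 counts) and static vessels did not (0 and 0). The stent and the count table also separated the stented high-flow group from the other vessels compared. Totals ranged from 13496636 to 26785124 counts over the 7 libraries, and mitochondrial genes took 3.31 to 8.65% of them at high flow and 5.51 and 4.23% at low flow. On the second principal component of the autosomal genes, with 22.7% of the variance, both low-flow libraries lay at 35.4 and 36.3 and the high-flow libraries between -35.9 and 4.33. The first component, with 34.8%, mixed the groups.

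Few autosomal genes were called between high and low flow, and most of those called were lower at high flow. With edgeR's quasi-likelihood test, and p-values adjusted by the Benjamini-Hochberg method over all genes tested, 19 autosomal genes passed an adjusted p of 0.05 when the mean of both high-flow groups was set against low flow, which is 0.171% of the autosomal genes. Of these, 17 were lower at high flow (0.153%) and 2 were higher (0.0180%). The split was less one-sided with other tools, at 130 lower and 49 higher by DESeq2 and 19 lower and 6 higher by limma-voom. Another 18 called genes, not placed on an autosome and mostly without a symbol, were 11 higher and 7 lower. The lower genes were NTRK2, AQP3, BMP3, NOTCH3, GATM, CGNL1, DGKB, SVIL, ACAN, C7, PLPP4, SEMA3G, TNS1, DCSTAMP, SLIT2, PGM5 and MYRIP, and the higher genes were DKK3 and AVPR1A. For all 19, the direction was the same in the stented and in the unstented high-flow group, and all 5 high-flow libraries lay on the same side of both low-flow libraries. Over all autosomal genes, 16.9% had such non-overlapping libraries, 7.57% with high flow above and 9.34% with high flow below. The 19 were called on the mean of the stented and unstented differences from the same low-flow libraries. That choice favours both the shared direction and the non-overlap, so neither is separate support for the calls. The median log2 difference of the autosomal genes was 0.02.

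Each high-flow group alone separated fewer genes from the same 2 low-flow libraries, which both contrasts share. The stented group had 9 autosomal genes past the threshold (0.0811%), and the unstented group had 3 (0.0270%), which were AVPR1A, GATM and CGNL1. Every gene called in either group was among the 19, and 7 of the 19 were called in neither group alone. Directly between stented and unstented high flow, 0 autosomal genes passed by edgeR's quasi-likelihood test, with 316 at an unadjusted p under 0.05 (2.85%). DESeq2 called 4 genes between these groups and limma-voom 0.

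**Figure D1:**
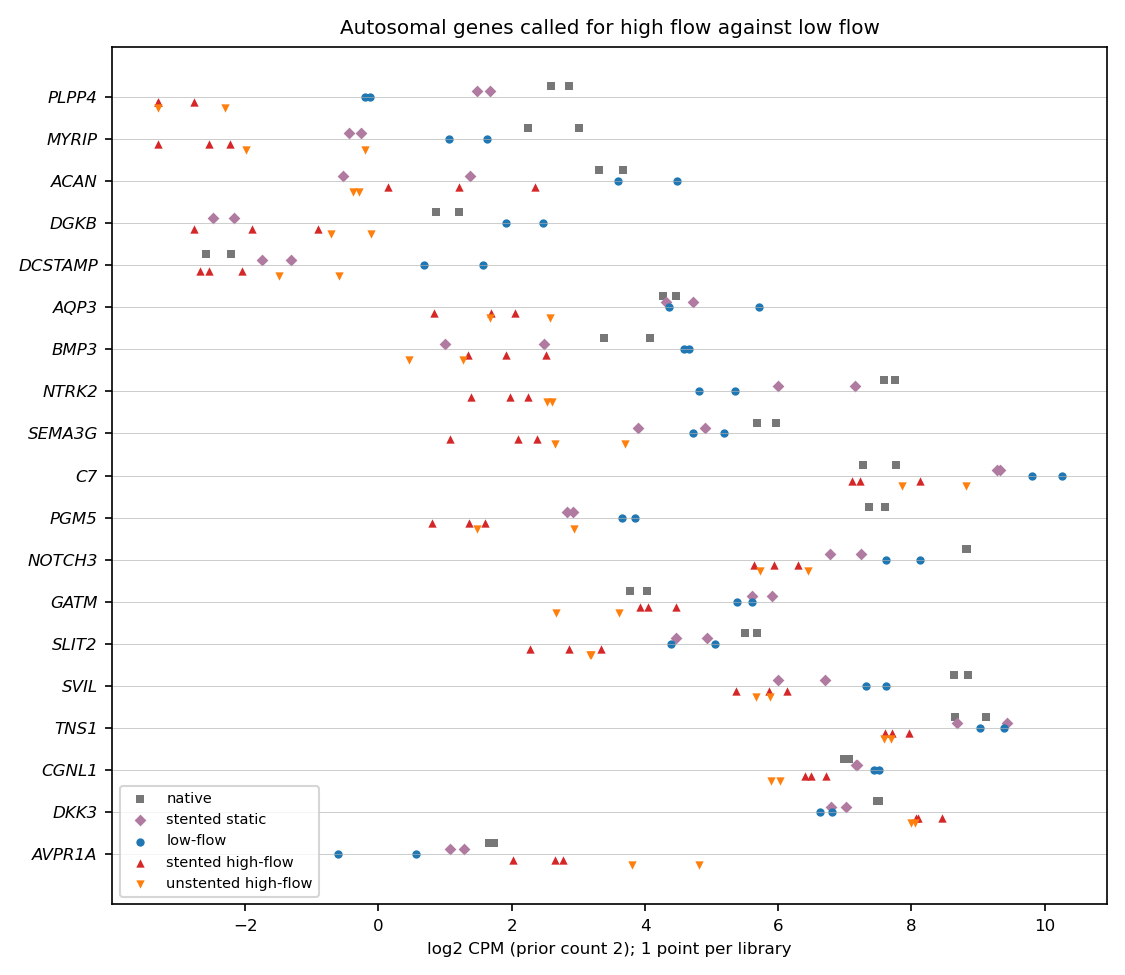
Expression of the 19 called autosomal genes in each of the 11 libraries, on a log2 axis of CPM (counts per 1000000 after TMM scaling), with 1 point per library and the group given by symbol. In every row the 5 high-flow points (triangles) lie on one side of both low-flow points (circles), to the left for 17 genes and to the right for DKK3 and AVPR1A.

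Among called receptors and guidance ligands, NTRK2 had the smallest adjusted p. NTRK2 (chr10:30030050-30429938), which encodes TrkB, the receptor for brain-derived neurotrophic factor, was at 2.51, 4.66 and 3.84 CPM in the stented high-flow libraries and at 5.95 and 5.65 CPM in the unstented ones, against 40.7 and 28.1 CPM at low flow. The groups lay far apart, and the 5 high-flow values were close together. The log2 difference of high from low flow was -2.89 ± 0.32 (SE), adjusted p = 0.00308 by edgeR's quasi-likelihood test. It was -3.22 ± 0.37 in stented vessels (adjusted p = 0.0051) and -2.57 ± 0.42 in unstented vessels (adjusted p = 0.0617), and the groups differed by -0.65 ± 0.37. Static vessels held 63.9 and 143 CPM and native vessels 192 and 215 CPM, so that the high-flow vessels had the lowest NTRK2 of the series.

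NOTCH3 (chr2:62364507-62402348), the Notch receptor of arterial smooth muscle and pericytes, stood at 78.7, 49.4 and 61.1 CPM in stented high-flow vessels and at 52.8 and 87.4 CPM in unstented ones. Both low-flow vessels were higher, at 197 and 279 CPM. The log2 difference was -1.84 ± 0.27 (adjusted p = 0.0243, edgeR's quasi-likelihood test), with -1.92 in stented and -1.76 in unstented vessels. Native vessels held more still, at 454 and 456 CPM.

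SEMA3G (chr13:34574014-34585686) encodes a secreted class 3 semaphorin made by arterial endothelium. Its levels were 4.16, 5.10 and 2.01 CPM in stented high-flow vessels, 6.21 and 12.9 CPM in unstented ones, and 26.3 and 36.1 CPM at low flow. The log2 difference was -2.38 ± 0.39 (adjusted p = 0.0362, edgeR's quasi-likelihood test). The stented group differed by -3.06 and the unstented group by -1.71, the latter with an adjusted p of 0.481. SLIT2 (chr8:14758426-15149515), a ligand of Robo receptors, was lower by a log2 difference of -1.73 ± 0.30 (adjusted p = 0.0485). It was at 7.18, 10.04 and 4.73 CPM in stented and 9.06 and 8.93 CPM in unstented high-flow vessels, and at 20.9 and 33.0 CPM at low flow.

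Among the called genes, TNS1, SVIL, CGNL1 and PGM5 encode proteins of cell adhesions or the cortical cytoskeleton, and the 4 were grouped by role after their values were seen. Other genes of this kind were mixed. VCL, which encodes the adhesion protein vinculin, was at 102 to 239 CPM at high flow and 288 and 316 CPM at low flow. The integrin genes ITGA8, ITGB4 and ITGA9 were also below low flow in all 5 high-flow libraries. ZYX, which encodes the adhesion protein zyxin, differed by -0.03 and ITGA5 by 0.30 on the log2 scale, both with overlapping libraries. TPM4, a tropomyosin gene, differed by 0.73 with all high-flow libraries above low flow. None of these other genes passed the test. TNS1 (chr15:119948133-120143797), a focal adhesion protein that links integrins to actin, was at 250, 209 and 194 CPM in stented and 192 and 208 CPM in unstented high-flow vessels, against 522 and 673 CPM at low flow. The difference was almost the same in the 2 groups, -1.46 and -1.58 on the log2 scale, and -1.52 ± 0.25 for both (adjusted p = 0.0421, edgeR's quasi-likelihood test). SVIL (chr10:41176358-41462750) encodes supervillin, which ties actin and myosin II to the membrane. It was at 69.7, 58.3 and 41.3 CPM in stented vessels, 58.9 and 50.9 CPM in unstented vessels and 160 and 197 CPM at low flow, a log2 difference of -1.68 ± 0.26 (adjusted p = 0.0288). Native arteries held 461 and 400 CPM.

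CGNL1 (chr1:114424148-114628331), or paracingulin, a protein of epithelial and endothelial cell junctions, had the smallest difference among the 19 genes. Its 84.9, 89.5 and 105 CPM in stented and 65.4 and 59.3 CPM in unstented high-flow vessels lay below 174 and 183 CPM at low flow (log2 difference -1.23 ± 0.19, adjusted p = 0.0271, edgeR's quasi-likelihood test). Here the unstented vessels lay below every stented vessel, and their group was called alone (-1.52, adjusted p = 0.0497). PGM5 (chr1:221634516-221837764), a phosphoglucomutase relative found at muscle adhesion junctions, was at 2.94, 2.47 and 1.64 CPM in stented and 2.70 and 7.54 CPM in unstented high-flow vessels, and at 12.5 and 14.4 CPM at low flow. Its log2 difference was -1.96 ± 0.34 (adjusted p = 0.0485). Native arteries held 164 and 194 CPM of PGM5, so that all 9 cultured vessels were far below them.

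Secreted proteins and matrix genes included both directions. C7 (chr16:25846860-25902707), a component of the terminal complement complex, stood at 901 and 1222 CPM at low flow. It was at 280, 137 and 149 CPM in stented and 232 and 452 CPM in unstented high-flow vessels, a log2 difference of -2.06 ± 0.33 (adjusted p = 0.0358, edgeR's quasi-likelihood test). Static vessels (626 and 642 CPM) lay between, and native vessels (217 and 155 CPM) lay within the range of high flow.

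ACAN (chr7:54449830-54520606), which encodes the large proteoglycan aggrecan, was at 1.00, 4.99 and 2.20 CPM in stented and 0.712 and 0.667 CPM in unstented high-flow vessels, against 22.2 and 11.9 CPM at low flow. Its log2 difference was -3.62 ± 0.58 (adjusted p = 0.0358, edgeR's quasi-likelihood test), and neither high-flow group was called alone. BMP3 (chr8:136880456-136904739), a member of the bone morphogenetic protein family that opposes its osteogenic relatives, was at 3.66, 5.61 and 2.44 CPM in stented and 1.27 and 2.31 CPM in unstented high-flow vessels. Low-flow vessels held 25.2 and 23.9 CPM, a log2 difference of -3.21 ± 0.44 (adjusted p = 0.0143). In static vessels BMP3 was also low, at 1.90 and 5.47 CPM.

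DKK3 (chr2:47385244-47444664), a secreted member of the Dickkopf family, was 1 of the 2 genes that rose. All 5 high-flow vessels held 256 to 351 CPM (stented 351, 268 and 273, unstented 265 and 256), and both low-flow vessels were below them, at 111 and 99.1 CPM. The log2 difference was 1.40 ± 0.23 (adjusted p = 0.0358, edgeR's quasi-likelihood test), with 1.50 in stented and 1.31 in unstented vessels. Static vessels (111 and 129 CPM) were near low flow, and native vessels held 182 and 179 CPM.

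AVPR1A (chr5:27824991-27832794), the V1a vasopressin receptor through which vasopressin contracts smooth muscle, was the other gene that rose. It was at 6.17, 6.73 and 3.93 CPM in stented and 27.9 and 13.9 CPM in unstented high-flow vessels, and at 1.37 and 0.559 CPM at low flow. The log2 difference was 3.49 ± 0.52 (adjusted p = 0.0243, edgeR's quasi-likelihood test). Both unstented vessels lay above all stented vessels: the unstented group differed from low flow by 4.44 (adjusted p = 0.0113) and the stented group by 2.54 (adjusted p = 0.122). Stented minus unstented was -1.90 ± 0.44, which did not pass the test over all genes (adjusted p = 1). Static and native vessels held between 2.01 and 3.22 CPM.

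**Figure D2:**
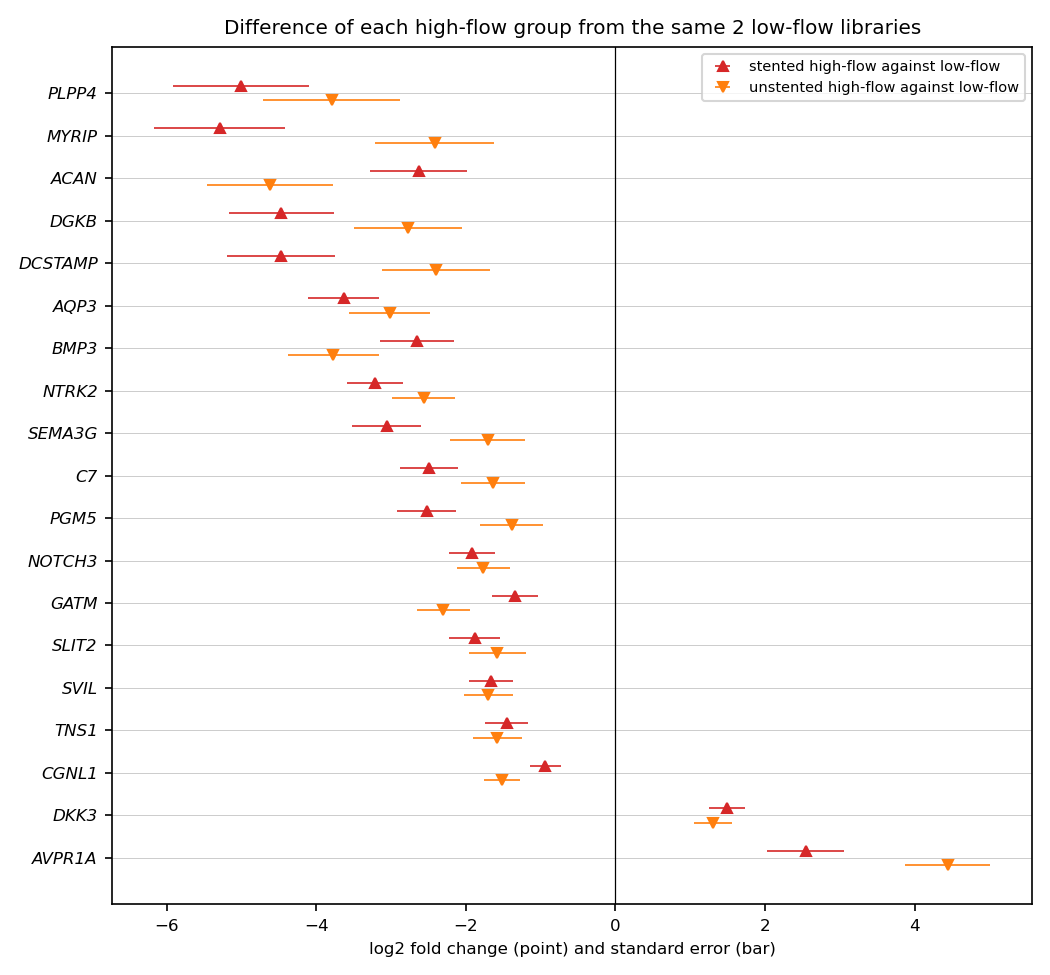
Log2 difference of stented and of unstented high-flow vessels from the same 2 low-flow libraries for the 19 called genes, with bars of 1 standard error. Both points lie on the same side of 0 in every row, and the distance between them ranges from 0.04 for SVIL to -2.87 for MYRIP (stented minus unstented).

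Membrane transport and metabolism contributed further lower genes. AQP3 (chr10:33045374-33050285) encodes a channel for water and glycerol. It was at 4.02, 3.14 and 1.69 CPM in stented and 3.10 and 5.85 CPM in unstented high-flow vessels. Both low-flow vessels were higher but unlike each other, at 20.4 and 52.3 CPM. The log2 difference was -3.33 ± 0.40 (adjusted p = 0.00566, edgeR's quasi-likelihood test). Native and static vessels, between 19.3 and 26.2 CPM, were near low-flow library 1. GATM (chr1:126361968-126378705), the first enzyme of creatine synthesis, was at 22.1, 15.1 and 16.5 CPM in stented and 12.2 and 6.21 CPM in unstented high-flow vessels and at 41.8 and 48.7 CPM at low flow. Its log2 difference was -1.82 ± 0.27 (adjusted p = 0.0261), and native vessels, at 16.3 and 13.6 CPM, were within the high-flow range.

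The remaining 4 genes rested on few reads at high flow. For PLPP4 (chr14:130277217-130424632), a phospholipid phosphatase, the 5 high-flow libraries held 3 counts in all and both low-flow libraries 41. Scaled to library totals, low flow was 24.3 times high flow, with a 95% counting interval of 7.74 to 122.5 that covers counting error only (adjusted p = 0.0362, edgeR's quasi-likelihood test). MYRIP (chr13:24347574-24556743), an adaptor between Rab27-bearing organelles and myosin, had 1, 2 and 0 counts in stented, 3 and 15 in unstented and 70 and 57 in low-flow libraries (adjusted p = 0.0489). The log2 difference was -3.85 ± 0.66 for both groups and -2.42 ± 0.80 for unstented vessels alone (adjusted p = 0.527), and low flow was 43.3 times the stented group, whose 3 counts give a counting interval of 14.5 to 212.7. DGKB (chr9:83571927-84358712), a diacylglycerol kinase, had 6, 3 and 1 counts in stented, 10 and 16 in unstented and 86 and 156 in low-flow libraries (log2 difference -3.62 ± 0.56, adjusted p = 0.0288). DCSTAMP (chr4:32912320-32928323), a membrane protein needed for fusion of osteoclasts and macrophages, had 1, 1 and 3 counts in stented, 11 and 5 in unstented and 35 and 82 in low-flow libraries (-3.44 ± 0.57, adjusted p = 0.0421).

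Of the 17 genes lower at high flow, 14 were higher in both native libraries than in all 5 high-flow libraries, the exceptions being C7, DCSTAMP and GATM. Both static libraries were above all high-flow libraries for 10 of the 17. Over all 11093 autosomal genes the native order held for 2722 (24.5%) and the static order for 1219. The 17 were chosen for low values at high flow, which favours both orders: among the 1036 genes with all high-flow libraries below both low-flow libraries, they held for 56.8% and 38.0%. DKK3 and AVPR1A were lower in all native and static libraries than in all high-flow libraries. These are orders of the libraries, without a test, and native vessels differ from the others also by the absence of culture.

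Many calls were lost when 1 library was left out. Leaving out 1 of the 2 low-flow libraries leaves 1 in that group. A call lost there therefore cannot show that the library left out carried the difference. CGNL1 was lost without low-flow replicate 1 and without low-flow replicate 2, while its log2 difference stayed between -1.27 and -1.14 over all settings. NTRK2 kept its call under all 17 alternative settings run. AQP3 kept it under 16 and lost it without low-flow replicate 2 (log2 difference -2.49, adjusted p = 0.15, edgeR's quasi-likelihood test). Each other gene was lost under 4 or more settings. Without low-flow replicate 2 only 1 autosomal gene was called, NTRK2, and without low-flow replicate 1 there were 4. Without stented high-flow replicate 2 there were 5 calls. When the autosomal genes were fitted without the others, 2 were called, NTRK2 and AQP3. None of the 19 differences changed sign under any setting run.

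**Figure D3:**
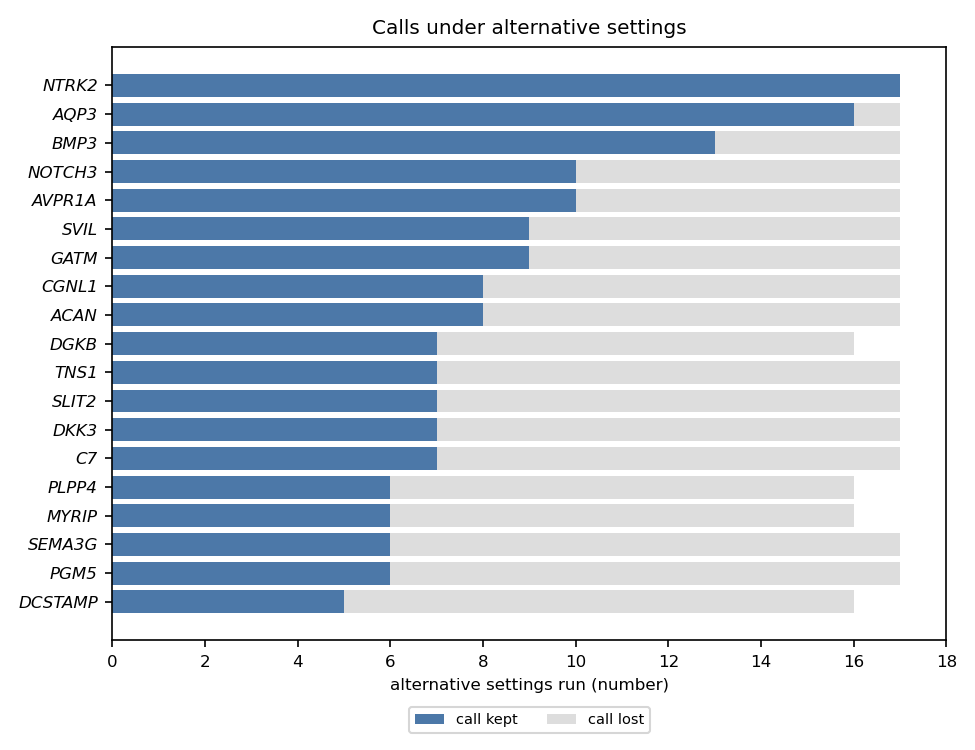
Number of alternative settings under which each of the 19 genes kept (blue) or lost (grey) its call at an adjusted p of 0.05. NTRK2 kept it in 17 of 17 and AQP3 in 16 of 17, and DCSTAMP in 5 of 16.

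The wider gene groups were read from 42 lists, of which 706 symbols were tested on autosomes. Only 6 of the lists held a called gene, so that the lists are described by how many members had non-overlapping libraries, beside 7.57% above and 9.34% below over all autosomal genes. In bulk tissue, fewer cells of a type and less RNA per cell cannot be told apart.

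Marker lists of cells other than smooth muscle went in both directions, and NOTCH3 of the pericyte list was their only called member. In the macrophage list, 8 of 21 tested members had all high-flow libraries below both low-flow libraries and 0 above, with a median log2 difference of -0.71. The summed level of the list was 635 to 1204 CPM at high flow and 1682 and 1842 CPM at low flow. GPNMB, a glycoprotein of lipid-laden macrophages, was at 174, 124 and 180 CPM in stented, 243 and 77.1 CPM in unstented and 570 and 452 CPM in low-flow vessels (log2 difference -1.68 ± 0.38), without passing the test (adjusted p = 0.14, edgeR's quasi-likelihood test). The scavenger receptors MRC1, CD163 and MSR1 and the growth factor receptor CSF1R had the same order. DCSTAMP, which macrophages use in fusion, shared this order between high and low flow, but not in static vessels. There DCSTAMP was at 0.198 and 0.304 CPM, within the high-flow range, while the macrophage sum was 3615 and 1624 CPM. The part of macrophage content in the DCSTAMP difference was not tested.

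Schwann cell and neural markers had the largest share, with 7 of 12 tested members below and 0 above and a median of -1.49. Their sum was 231 to 303 CPM at high flow and 459 and 400 CPM at low flow. SOX10, the transcription factor that defines Schwann cells, stood at 1.51, 7.12 and 11.7 CPM in stented, 9.97 and 5.59 CPM in unstented and 23.4 and 18.8 CPM in low-flow vessels (-1.53 ± 0.53, adjusted p = 0.366, edgeR's quasi-likelihood test). CDH19, NGFR, SCN7A, ERBB3 and MBP were also below low flow in all 5 libraries. Nerve is a known site of NTRK2, and the part of nerve content in the NTRK2 difference was not tested. No marker of the macrophage, Schwann, pericyte or endothelial lists was at 0 in all 7 libraries, while CD3E, CD79B and MS4A1 of the lymphocyte list were.

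Pericyte markers had 3 of 9 members below, NOTCH3 among them. Adipocyte markers had 4 of 15 below, with a median of -1.10 that was -1.56 in stented and -0.34 in unstented vessels. The adipocyte sum overlapped (412 to 1089 CPM at high flow, 782 and 820 CPM at low flow). Endothelial markers had 2 of 14 below and 0 above, with sums of 562 to 995 CPM at high flow and 794 and 1082 CPM at low flow. The stented sums, at 562, 746 and 562 CPM, were below both low-flow sums. The unstented sums, at 995 and 861 CPM, lay between the low-flow sums. The median log2 difference was -0.66 in stented and -0.17 in unstented vessels.

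Other marker lists were mixed or had a few members above. Lymphocyte markers had 2 of 13 members above and 0 below, with a median of 0.00. GZMA, 1 of these 2, ranged from 0.168 to 34.4 CPM at high flow. Neutrophil and mast cell markers had 2 of 8 above, S100A8 and S100A12, and 1 below. S100A8 rested on few reads and barely separated, at 0.359 to 3.31 CPM at high flow and 0.0856 and 0.35 CPM at low flow. S100A12 was at 2.15, 2.64 and 3.84 CPM in stented, 7.02 and 4.31 CPM in unstented and 0.428 and 0.664 CPM in low-flow vessels (2.87 ± 1.12, adjusted p = 0.421, edgeR's quasi-likelihood test). Erythrocyte and platelet markers had 1 of 3 above and 0 below, and adventitial fibroblast markers 2 of 18 above and 3 below.

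**Figure D4:**
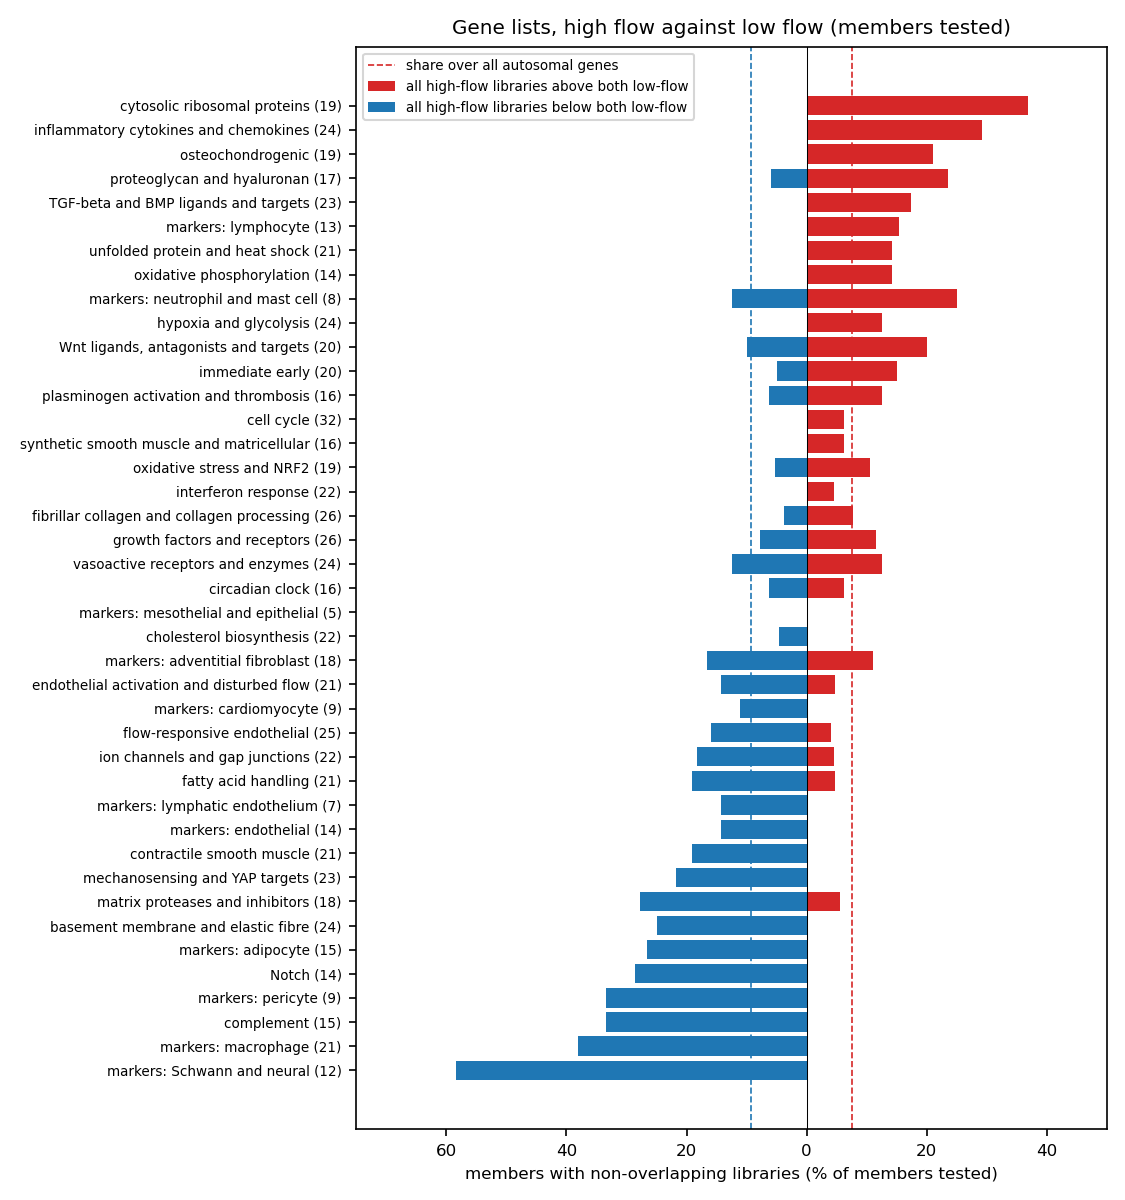
Share of tested members of each of the 41 lists with 5 or more tested (number in brackets) with all 5 high-flow libraries above (right, red) or below (left, blue) both low-flow libraries, in percent. Dashed lines give the shares over all autosomal genes, 7.57% above and 9.34% below, and the Schwann and neural list reaches furthest left.

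Complement and Notch genes leaned the same way as their called members. In the complement list, 5 of 15 members were below and 0 above, with a median of -0.83, and C7 was the called gene. C4A, a component of the classical pathway, was at 27.6, 34.7 and 67.9 CPM in stented, 28.2 and 37.3 CPM in unstented and 147 and 145 CPM in low-flow vessels, with a log2 difference of -1.95 ± 0.37 that did not pass the test (adjusted p = 0.0785, edgeR's quasi-likelihood test). In the Notch list, 4 of 14 members were below and 0 above. Besides NOTCH3 these were the target genes HEY1 and HEYL and the glycosyltransferase gene MFNG, none of which passed the test.

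The elastic fibre and basement membrane list had no called member. Of its 24 members tested, 6 were below and 0 above (median -0.33), and the sum was 12349 to 16453 CPM at high flow and 18791 and 18653 CPM at low flow. ELN, which encodes elastin, was at 519, 330 and 635 CPM in stented, 425 and 490 CPM in unstented and 1587 and 945 CPM in low-flow vessels (-1.41 ± 0.39, adjusted p = 0.246, edgeR's quasi-likelihood test). FBLN5, which encodes the elastic fibre protein fibulin-5, was at 141 to 250 CPM at high flow and 403 and 483 CPM at low flow (-1.17 ± 0.23, adjusted p = 0.0876).

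Contractile smooth muscle genes varied widely within high flow. The myosin heavy chain gene MYH11 was at 934, 468 and 280 CPM in stented and 82.0 and 1030 CPM in unstented vessels, and at 1944 and 2568 CPM at low flow. All high-flow values were lower, but they spread widely, and the difference of -2.01 ± 0.85 did not pass (adjusted p = 0.45, edgeR's quasi-likelihood test). In the contractile list, 4 of 21 members were below and 0 above. ACTA2, smooth muscle actin, overlapped between the groups (865 to 3022 CPM at high flow, 3168 and 2793 CPM at low flow). Smooth muscle and endothelial markers, as an artery should hold, were thus present in all 7 libraries.

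Inflammatory cytokines and mediators had the opposite order. Of 24 members tested, 7 had all high-flow libraries above both low-flow libraries and 0 below, and the median log2 difference was 0.76. The sum was 2126 to 3569 CPM at high flow and 1338 and 1743 CPM at low flow. IL6 was at 8.04, 13.7 and 48.2 CPM in stented, 36.2 and 18.3 CPM in unstented and 3.13 and 2.06 CPM in low-flow vessels, a log2 difference of 3.28 ± 0.70 (adjusted p = 0.123, edgeR's quasi-likelihood test). IL11, a cytokine of the same family, was at 21.6, 31.5 and 182 CPM, 86.3 and 30.8 CPM, and 4.97 and 2.45 CPM in the same order of groups (4.20 ± 1.07, adjusted p = 0.19). PTGS2, the inducible cyclooxygenase, and PTGES, the prostaglandin E synthase, were likewise above low flow in all 5 libraries. None of the 24 passed the test. The neutrophil and mast cell sum was 60.3 to 197 CPM at high flow and 59.6 and 61.7 CPM at low flow. Most of this sum was 1 gene, KIT, at 47.9 to 186 CPM at high flow and 56.9 and 58.9 CPM at low flow. The part of neutrophil and mast cell content in the cytokine values was not tested.

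**Figure D5:**
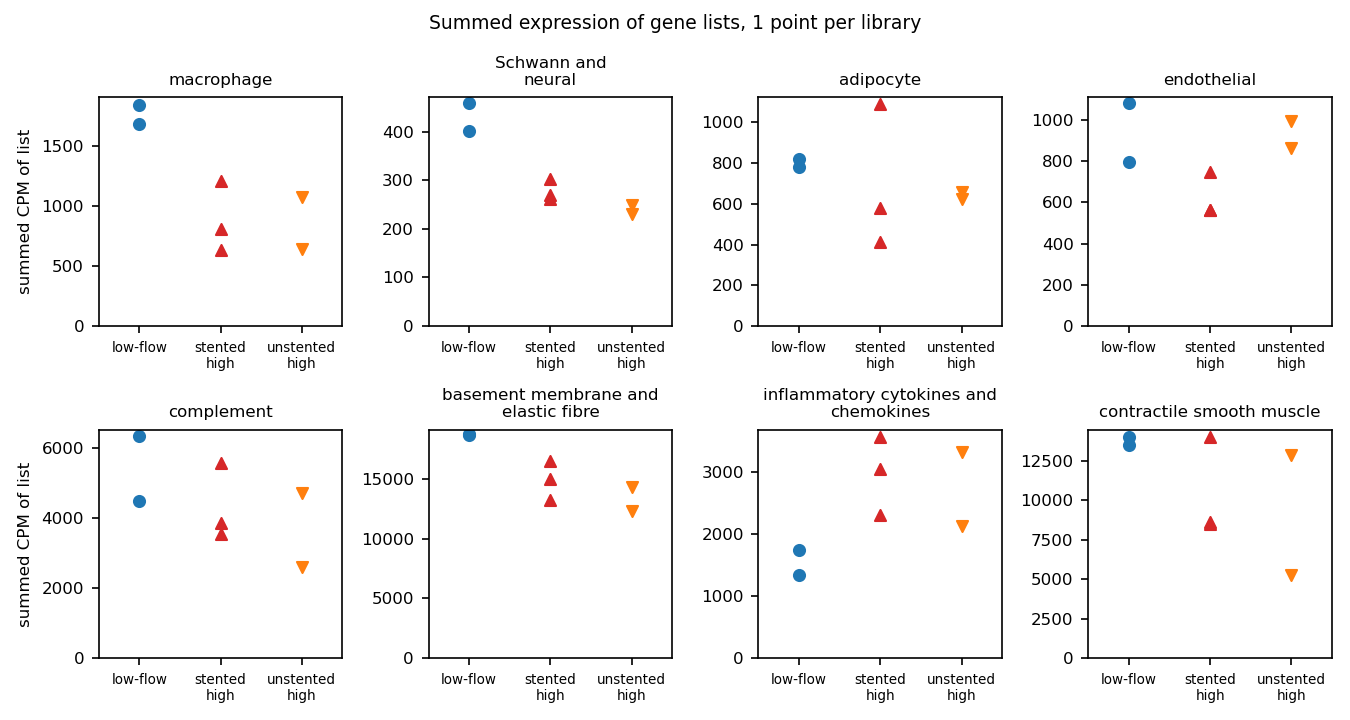
Summed CPM of the tested members of 8 lists, with 1 point per library, for low-flow, stented high-flow and unstented high-flow vessels. Macrophage and Schwann sums lie below both low-flow points in all 5 high-flow libraries and inflammatory sums above, while adipocyte, endothelial, complement and contractile sums overlap.

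Ligands and targets of the TGF-beta and BMP families had 4 of 23 members above and 0 below. INHBA, which encodes the activin A subunit, came closest to a call, at 690, 324 and 463 CPM in stented, 963 and 474 CPM in unstented and 157 and 116 CPM in low-flow vessels (2.12 ± 0.40, adjusted p = 0.0785, edgeR's quasi-likelihood test). Its antagonist gene FST was also above low flow in all 5 libraries (lowest 9.03 CPM, against 6.89 and 6.43 CPM). In the Wnt list, 4 of 20 members were above, DKK3 among them, and 2 below. Cytosolic ribosomal protein genes had 7 of 19 above and 0 below, with a median of 0.51 and no call.

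Genes known to respond to shear in endothelium were mostly lower, with 18 of 25 tested members below 0, a median log2 difference of -0.39 and no call. Over all autosomal genes, 48.4% were below 0. The list's sum was 1054 to 1435 CPM at high flow and 1562 and 1829 CPM at low flow, without overlap. This gap rested on 1 gene, PLPP3, at 207 to 273 CPM at high flow and 403 and 543 CPM at low flow. Without PLPP3 the sums would overlap. Of the members, 4 were below low flow in all high-flow libraries (TEK, HEY1, PLPP3 and AQP1), and 1 was above (DUSP5). KLF2 was at 79.9, 69.6 and 89.6 CPM in stented, 74.5 and 101 CPM in unstented and 45.5 and 76.6 CPM in low-flow vessels, with overlapping groups (0.46 ± 0.42, adjusted p = 0.745, edgeR's quasi-likelihood test). KLF4 differed by -0.32 ± 0.28 and NOS3 by -1.10 ± 0.51, with NOS3 at 14.7 to 38.5 CPM at high flow and 34.0 and 60.4 CPM at low flow. The intervals of these genes are wide, and a missed threshold does not show that the levels were alike. VCAM1, an adhesion molecule of activated endothelium, overlapped as well (24.2 to 124 CPM against 76.1 and 154 CPM).

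Just outside the threshold, 25 autosomal genes had an adjusted p between 0.05 and 0.1, of which 6 were higher and 19 lower at high flow. The nearest was ABI3BP, a matrix protein gene, at 27.5, 34.0 and 21.3 CPM in stented vessels, no higher in unstented vessels (lowest 13.4 CPM) and 58.5 and 66.1 CPM in low-flow vessels (-1.54 ± 0.27, adjusted p = 0.0567, edgeR's quasi-likelihood test). Just inside lay MYRIP, with an adjusted p of 0.0489. Among the 6 higher genes, RGS2, a regulator of G protein signalling that limits vasoconstrictor responses, was at 172 to 586 CPM at high flow and 85.3 and 63.2 CPM at low flow (2.21 ± 0.40, adjusted p = 0.0663). Without an adjustment, 1099 autosomal genes (9.91%) had p under 0.05, 400 higher (3.61%) and 699 lower (6.30%).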

How the data were processed

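The authors deposited raw read counts per gene in 2 tables, 1 with the native, static and stented high-flow libraries and 1 with the native and unstented libraries. The native libraries had the same counts in both tables and were read once. The submitters' processing notes name Trimmomatic, FastQC, DESeq2 and Sscrofa11.1, with no version of the tools. Neither the aligner nor the counting program nor the use of strand is given in the sources used here. The tables were joined on gene ID (25880 genes), and 14857 IDs had a symbol. RefSeq on Sscrofa11.1 placed 13744 by symbol, 13111 of them on autosomes 1 to 18.

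Counts of all 11 libraries in 5 groups were fitted with edgeR 4.0.16 (filterByExpr, TMM scaling, quasi-likelihood test) in R 4.3.3, and p-values were adjusted by Benjamini-Hochberg over 15348 genes. High flow was the mean of the stented and unstented coefficients minus low flow. Standard errors come from the quasi-likelihood F statistic, CPM from TMM-scaled totals, and 3 counts equal 0.105 to 0.215 CPM. The method was tested on simulated data with changes placed in the low-flow libraries. It recovered 4.98% of 2-fold, 58.2% of 4-fold and 83.8% of 8-fold changes, so most 2-fold differences would be missed. DESeq2 1.42.0, limma-voom (limma 3.58.1), other scalings and filters and left-out libraries were alternatives.

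The members and lists were chosen with earlier results of these data known. The text names called genes with a mean log2 CPM of 3 or more and called list members. The 8 other called genes and the list examples were chosen after their values were seen. CCN1 and HMOX1 were not placed on an autosome and THBD matched no ID, so they are not described. Another 18 called genes were not placed on an autosome (11 higher, 7 lower), 16 of them without a symbol. The values of 1 further list member are not reported here.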

Additional observations from a re-analysis of the deposited data

How the results depend on the processing

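Direction held for all 19 called genes under every setting run, with 164 of their differences still past the threshold and 155 not. Counts of calls moved more. DESeq2 gave 179 autosomal genes for high against low flow, all 179 with one direction in both groups, 173 for stented and 66 for unstented vessels, and 4 between the high-flow groups. limma-voom gave 5 for unstented vessels, and 25 for high against low flow. Without a filter on low counts there were 113, 113, 101 and 31 calls (both groups, same direction, stented, unstented). With at least 10 counts in each of the 7 libraries there were 7, 7, 2 and 0. With only the 7 libraries fitted there were 7, 7 and 3 (both, same direction, stented). With only autosomal genes in the fit there were 2, 2, 1 and 0. The 5 high-flow libraries as 1 group gave 9, all with one direction. The count table of the unstented groups, which also holds the native libraries, gave 25 for unstented vessels when fitted alone. Leaving out each library in turn gave 1 to 22 calls for both groups and 1 to 22 with one direction, 1 to 10 for stented, 0 to 8 for unstented and 0 to 1 between the high-flow groups. The replicate block gave 6 calls, 6 with one direction and 2 for stented vessels. Same-numbered libraries had correlations of -0.329 to 0.183 in their deviations from group means. In groups of 2 libraries these deviations mirror each other, so the correlations cannot show whether same-numbered libraries are related. The cause of these shifts was not tested, except that fewer genes or libraries entered where stated. With 2 low-flow libraries and 13496636 counts in the shallowest library, differences in genes of few counts were not well measured.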
